A study of Rattus norvegicus with 9 samples.

Results

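A set of 10 mitotic and proliferation genes was chosen by name: Mki67, Top2a, Ccnb1, Ccnb2, Cdk1, Birc5, Aurkb, Kif11, Rrm2 and Cdc20. Of these 10, the 5 matched among the 18420 genes of the table were Mki67, Cdk1, Birc5, Aurkb and Cdc20. Levels of the other 5 were not analysed here. The samples were kidney cortex of ZDF fa/fa rats with diabetes, an obese line lacking a working leptin receptor, and messenger RNA was sequenced. All 9 libraries carried the treatment label Medical Bypass, which the study's title sets against gastric bypass. Genotype, diabetes, tissue and treatment were thus shared by all samples, the labels gave no age, sex, drug, dose or time, and no other group was analysed here, so no effect of treatment could be estimated. The values below compare the 9 replicates with each other. The labels do not say that the replicates are separate animals, so p-values measure only how these samples vary, which can be technical variation.

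These genes serve the last steps of the cell cycle. Cdk1 with a cyclin B partner is the kinase that drives entry into mitosis, Mki67 encodes the Ki-67 protein that coats mitotic chromosomes and is the usual stain for cycling cells, and Birc5 (survivin) and Aurkb (aurora kinase B) belong to the chromosomal passenger complex that corrects the attachment of chromosomes to the spindle. Cdc20 activates the anaphase-promoting complex, which marks cyclin B for destruction and so ends mitosis. In the adult kidney most tubule cells are at rest, and surviving tubule cells are known to re-enter the cycle after injury.

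Promoters of such genes often hold CCAAT boxes, bound by NF-Y, and the cell cycle homology element TTTGAA or TTCGAA, through which the DREAM complex holds mitotic genes silent at rest. The 300 bases from 250 before to 50 after the RefSeq start site were searched on both strands in the GRCr8 build. That build is not the one the counts were made on. Of the 10 genes 8 had an entry, among them Top2a, Ccnb1, Ccnb2 and Kif11, whose levels were not analysed. CCAAT was present in 8 of these 8 windows, against 37.5% of 33469 promoters, and 6 of 8 held at least 2 copies, against 11.2%. TTTGAA or TTCGAA was present in 6 of 8, against 19.7%, and both kinds together in the same 6 of 8, against 7.95%. The E2F forms TTTCCCGC, TTTGGCGC and TTTGGCGG were found in 0 of 8 windows, against 1.90% of all promoters. Only these exact forms were searched, so shorter or looser E2F sites in the windows were not counted. A match describes the letters only, and factor binding was not measured. The windows of the 4 measured genes with an entry are shown because they let the shared elements be read beside the levels, with every match in capitals.
Mki67: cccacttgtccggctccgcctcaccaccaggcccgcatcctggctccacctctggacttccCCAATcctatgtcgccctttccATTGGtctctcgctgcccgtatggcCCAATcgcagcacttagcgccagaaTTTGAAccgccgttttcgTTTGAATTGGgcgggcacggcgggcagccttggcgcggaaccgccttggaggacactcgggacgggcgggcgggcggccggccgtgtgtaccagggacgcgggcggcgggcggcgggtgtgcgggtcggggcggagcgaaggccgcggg
Cdk1: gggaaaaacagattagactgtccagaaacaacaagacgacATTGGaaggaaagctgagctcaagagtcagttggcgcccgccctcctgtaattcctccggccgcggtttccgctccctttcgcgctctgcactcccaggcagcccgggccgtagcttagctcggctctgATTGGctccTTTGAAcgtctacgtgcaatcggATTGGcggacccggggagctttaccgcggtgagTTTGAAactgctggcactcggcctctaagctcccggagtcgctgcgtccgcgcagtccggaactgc
Birc5: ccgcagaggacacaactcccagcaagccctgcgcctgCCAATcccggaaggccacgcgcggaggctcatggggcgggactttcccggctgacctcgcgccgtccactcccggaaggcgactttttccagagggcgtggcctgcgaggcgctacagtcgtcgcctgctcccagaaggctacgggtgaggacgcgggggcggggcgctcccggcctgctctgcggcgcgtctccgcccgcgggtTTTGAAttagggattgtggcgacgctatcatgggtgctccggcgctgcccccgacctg
Cdc20: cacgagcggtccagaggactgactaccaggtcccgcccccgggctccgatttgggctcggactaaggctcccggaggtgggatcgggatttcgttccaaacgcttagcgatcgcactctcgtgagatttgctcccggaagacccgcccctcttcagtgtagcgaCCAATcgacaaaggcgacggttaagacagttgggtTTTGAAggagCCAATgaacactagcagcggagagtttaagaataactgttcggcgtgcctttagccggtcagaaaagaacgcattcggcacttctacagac
The Mki67 window lies at chr1:199952544-199952843 on the minus strand, Cdk1 at chr20:19265043-19265342 on the plus strand, Birc5 at chr10:103571896-103572195 on the plus strand and Cdc20 at chr5:137255750-137256049 on the minus strand. Mki67 held 4 CCAAT boxes and 2 TTTGAA elements, and the second TTTGAA, at -99 to -94 from the start site, shares 1 base with a CCAAT box read on the opposite strand. Cdk1 held 3 CCAAT boxes and 2 TTTGAA elements. Birc5 held 1 of each, at -213 to -209 and -8 to -3, and Cdc20 held 2 CCAAT boxes around 1 TTTGAA at -51 to -46.

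The cortex carried few reads of these genes. The 5 measured genes together took 2079 of 234408285 reads in genes, which is 8.87 RPM (reads scaled to a common library total), with 6.88 RPM in replicate 3 as the lowest and 11.4 RPM in replicate 4 as the highest. Library depth ran from 10757440 reads in genes in replicate 3 to 43071223 in replicate 8, and the shallowest library held 74 reads of the 5 genes. Levels below are reads over a size factor set for each library, called units. They are not corrected for gene length, so levels of different genes are not compared. One read was worth 0.544 to 1.99 units. Exact 95% Poisson intervals on single libraries cover counting error only. In such bulk tissue, fewer cycling cells and less RNA per cycling cell cannot be told apart.

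Of the 5 measured genes, Mki67 had the largest variance relative to counting error. It averaged 52.3 ± 19.1 units (SD, n = 9), from 30.8 in replicate 1 through a median of 45.8 to 86.3 in replicate 4. Replicates 4, 9 and 3 stood highest, at 86.3, 78.1 and 61.7 units, and the other 6 lay between 30.8 and 49.5. The counting interval of replicate 4 was 72.2 to 102 units and that of replicate 1 was 20.8 to 44.0. The intervals of 11 of 36 pairs of replicates did not overlap, and the variance between replicates was 8.33 times that of counting alone.

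Cdk1, the mitotic kinase, averaged 16.7 ± 5.75 units (SD, n = 9). Its lowest level was 11.4 in replicate 8, its median 13.9 and its highest 27.8 in replicate 5. It rested on 185 reads in all. Intervals failed to overlap in 1 of 36 pairs, and the variance was 2.50 times that of counting. Cdk1 levels therefore could hardly be ordered at this depth, apart from replicate 5 above replicate 8.

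Birc5 and Aurkb rested on the fewest reads of the 5 measured genes, 113 and 57 in all. Birc5 averaged 10.1 ± 5.17 units (SD, n = 9), from 1.99 in replicate 3, which is 1 read, through a median of 9.79 to 17.6 in replicate 5. Replicates 5, 7 and 4 stood at 17.6, 16.0 and 13.8 units and replicates 3, 2 and 6 at 1.99, 5.44 and 6.15. Aurkb averaged 5.08 ± 4.01 units (SD, n = 9), with a median of 4.66. It had 0 reads in replicate 3, where 3 reads, the floor that a count of 0 allows, would be 5.97 units, and 14.4 units, or 14 reads, in replicate 1. Birc5 and Aurkb each had 2 of 36 pairs without overlap and variances 2.60 and 2.71 times that of counting. Birc5 lay just inside the minimum mean of 10 units set for testing and Aurkb below it, so 4 of the 5 measured genes were tested.

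Cdc20 was the best counted, with 1170 reads. It averaged 104 ± 22.2 units (SD, n = 9), with a median of 95.6. Its levels fell into sets of 4 and 5 libraries: replicates 5, 8, 7 and 4 stood at 132, 128, 126 and 120 units, and the other 5 at 69.7 to 95.6. Counting intervals still overlapped between the sets, as in replicate 1, at 77.2 to 117 units, and replicate 4, at 103 to 139. Intervals did not overlap in 10 of 36 pairs, and the variance was 4.56 times that of counting. The highest replicate was 1.89 times the lowest for Cdc20, 2.80 times for Mki67 and 2.44 times for Cdk1. On the log2 scale the SD of the 4 tested genes had a median of 0.46, beside 0.33 over all 13647 genes tested. That scale counts sampling noise too, which is larger for genes with few reads.

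**Figure D1:**
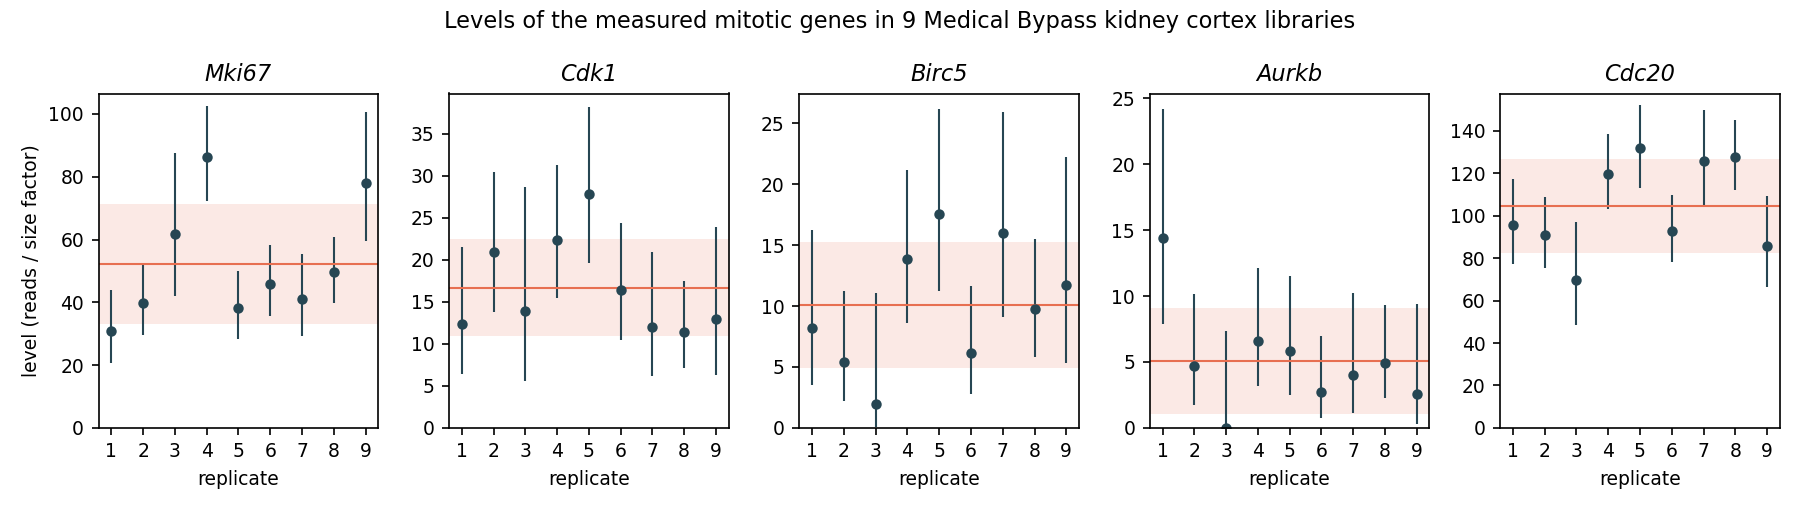
Level of each measured gene (reads divided by size factor, y axis from 0) in replicates 1 to 9 (x axis), with exact 95% Poisson intervals as bars, the mean as a line and 1 SD around it as a band. Mki67 is highest in replicates 4, 9 and 3, whereas Cdc20 is highest in replicates 5, 8, 7 and 4.

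Whether these genes moved together between replicates was asked with Mki67 as the anchor. For every other gene tested, limma fitted the slope of its log2 level on that of Mki67, in log2 units per log2 unit of Mki67, with Benjamini-Hochberg adjustment over 13646 genes. Of these, 0 passed at an adjusted p under 0.05 (0% called), where 2123 were under 0.05 before adjustment and the lowest adjusted p was 0.301. edgeR's quasi-likelihood test on the recovered reads also called 0 with 2051 at an unadjusted p under 0.05, and DESeq2 called 70, or 0.513%. None of the other tested mitotic genes was called by any of these 3 tools. Cdk1 had a slope of 0.03 ± 0.35 (SE, limma adjusted p = 0.966), Birc5 of -0.04 ± 0.57 (limma adjusted p = 0.974) and Cdc20 of -0.12 ± 0.25 (limma adjusted p = 0.796). The order of the replicates differed between Mki67 and Cdc20: replicate 9 was second highest for Mki67 and second lowest for Cdc20, and replicate 5 was highest for Cdc20 and second lowest for Mki67. Replicate 4 was high for both. Over the 9 replicates, as a description, Pearson r was 0.036 between Mki67 and Cdk1 and 0.212 between Cdk1 and Birc5. Birc5 and Aurkb had an r of 0.643, which was -0.0148 without the 2 replicates farthest from the median of Birc5. A slope near 0 with these errors does not show that the genes are unrelated.

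The 1 call among the mitotic genes was Birc5 with Cdc20, and several other settings ended it. This fit was added after the data were seen, since Cdc20 had the most reads. The slope of Birc5 on Cdc20 was 2.23 ± 0.58 (SE, n = 9, limma adjusted p = 0.0161 over 13646 genes), so 1 of 3 mitotic genes was called, against a background of 27.5% of all genes. Birc5 averaged 10.1 units, just over the minimum mean of 10. Its highest levels, 13.8 to 17.6 units, lay in replicates 4, 5 and 7, where Cdc20 was also high. Birc5 thus entered the fit partly through those libraries, and the call is a description only. Cdk1 had a slope of 0.33 ± 0.53 and Mki67 of -0.30 ± 0.51 (limma adjusted p of 0.665 and 0.689). The call was lost without replicate 3, the library with 1 Birc5 read, at a slope of 1.57 (limma adjusted p = 0.113), and without replicate 5, at 2.16 (limma adjusted p = 0.0638). It was also lost in DESeq2, at 2.14 (DESeq2 adjusted p = 0.0541), and kept in edgeR, at 2.10 (edgeR adjusted p = 0.0339). The count of all genes called was 1029 without replicate 5, 1633 without replicate 8 and 2478 without replicate 9. Of the 3750 genes called, 47.4% had positive slopes. With library totals made equal 2662 genes were called, of which 34.3% had positive slopes. Since the levels of Cdc20 fell into sets of 4 and 5 libraries, neither large enough for a correlation, no r with Cdc20 is interpreted. Such values enter only the permutation alternatives, the mean profile and the range of pairwise r given below. The slopes on Cdc20 rest on the same split.

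Cdc20 was high in the libraries with the fewest reads outside genes. Reads outside genes made 22.03% to 28.8% of counted reads in 4 libraries, replicates 4, 5, 7 and 8, and 30.02% to 31.3% in the other 5. Cdc20 stood at 120 to 132 units in those 4 libraries and at 69.7 to 95.6 in the others, without overlap. These 4 libraries are also those where Cdc20's own levels split, and the shares have a wider gap elsewhere, so this is a description of Cdc20 and no test. Of all genes tested, 4.29% were higher in the 4 without overlap. Birc5 stood at 9.79 to 17.6 units in those 4 libraries and 1.99 to 11.7 in the others, and Mki67 at 38.1 to 86.3 and 30.8 to 78.1. The limma slope of Cdc20 on that share was -0.08 ± 0.03 log2 units per percentage point (adjusted p = 0.0723) and that of Birc5 -0.19 ± 0.08 (adjusted p = 0.0754), so 0 of 4 mitotic genes were called against 29.1% of all genes (15.7% with positive and 13.4% with negative slopes). With the share of reads outside genes as a covariate, the slope of Birc5 on Cdc20 was 2.15 (limma adjusted p = 0.514) and 0 genes in all were called. With the multi-aligned share, that is reads placed at more than 1 site, as the covariate it was 2.17 (limma adjusted p = 0.172), again with 0 genes called, and with log2 library size 2.91 (limma adjusted p = 0.0906), with 624. Against the multi-aligned share itself, 0 of 4 mitotic genes were called by limma, beside 35% of all genes (16.3% with positive and 18.7% with negative slopes), and Cdc20 had a slope of 0.09 and Birc5 of 0.20 (both limma adjusted p = 0.135). Against log2 reads in genes, a measure of depth, limma called 0 of all genes tested. Cdc20 had a slope of 0.41 ± 0.16 there (limma unadjusted p = 0.0261, adjusted p = 0.371), beside an unadjusted p of 0.0253 on the share of reads outside genes. The part of library composition or depth in these results was not tested.

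**Figure D2:**
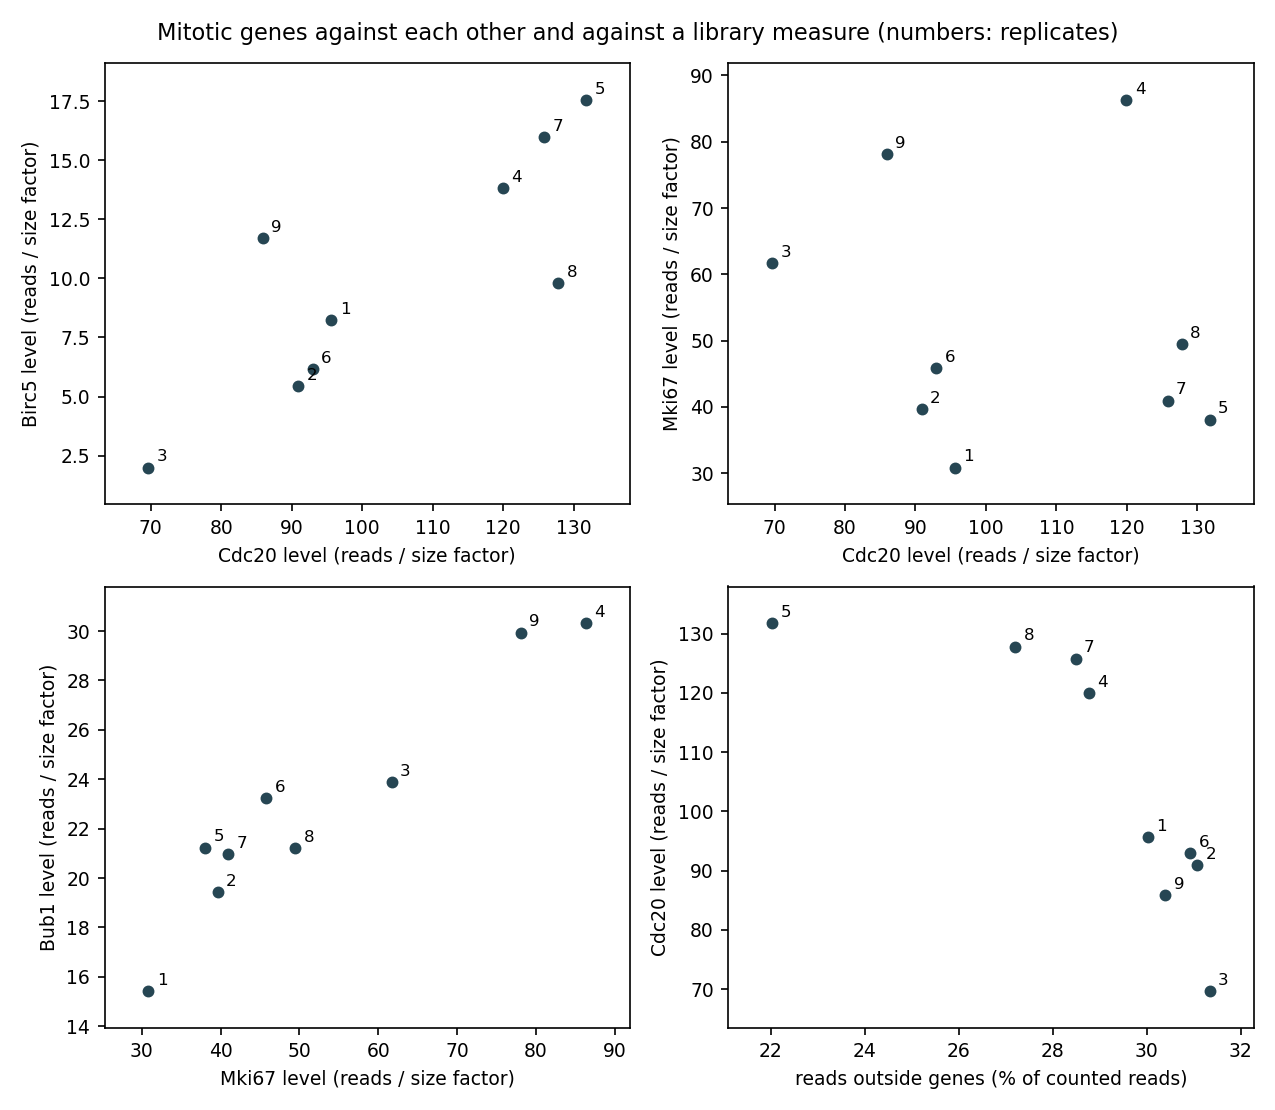
Levels (reads divided by size factor) of Birc5 and of Mki67 against Cdc20, of Bub1 against Mki67, and of Cdc20 against the share of reads outside genes (percent of counted reads), with 1 numbered point per replicate. Cdc20 is at 120 to 132 units in replicates 4, 5, 7 and 8, the libraries with the fewest reads outside genes, and Mki67 is highest in replicates 4, 9 and 3.

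Other genes of the cell cycle were read from 5 lists of 90 genes, of which 84 were matched and 64 tested. Under the minimum mean were 13 of 30 matched genes of the spindle, kinetochore and mitotic kinase list (43.3%), among them Ttk, Kif2c, Ube2c and Cenpa, beside 4 of 25 in the replication list (16.0%) and 25.9% of all genes. In the Mki67 fit 0 of the 64 were called by limma, where 39 had positive slopes and the median slope was 0.11, beside 6965 of 13646 and 0.01 over all genes.

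The spindle, kinetochore and mitotic kinase list had 14 of 17 slopes on Mki67 above 0 and a median of 0.24, with 0 called. The count of positive slopes was also 14 of 17 under TMM scaling and with library totals made equal. Bub1, a kinase of the spindle checkpoint, averaged 22.8 ± 4.78 units (SD, n = 9), from 15.4 in replicate 1 to 30.3 in replicate 4, and was named after its values were seen. Its Pearson r with Mki67 was 0.947 (exact permutation p = 0.000193, adjusted p = 0.202 over all genes) and its Spearman rho 0.867 (exact permutation p = 0.00451, adjusted p = 0.303). Without the 2 replicates farthest from the median of Mki67, r was 0.848. The variance of Bub1 between replicates was 1.12 times that of counting, so its own levels hardly differed beyond counting error.

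Ndc80, which ties kinetochores to microtubules, and Tpx2, which targets aurora A to the spindle, had slopes on Mki67 of 1.08 ± 0.38 and 0.75 ± 0.30 (limma adjusted p of 0.301 and 0.306). Aurka, aurora kinase A itself, had a slope of -0.44 ± 0.22 (limma adjusted p = 0.342). Incenp, the scaffold of the chromosomal passenger complex, averaged 1092 ± 196 units (SD, n = 9), from 766 to 1431, and Cks2, a subunit that binds Cdk1, 107 ± 29.99, from 79.4 to 163. Their slopes on Mki67 were 0.15 ± 0.19 and -0.16 ± 0.27 (limma adjusted p of 0.669 and 0.755).

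DNA replication genes showed no common direction: 12 of 21 slopes on Mki67 were above 0, with a median of 0.03. Rrm1, the large subunit of ribonucleotide reductase, averaged 1332 ± 146 units and Pcna, the sliding clamp of DNA polymerases, 1170 ± 126 (SD, n = 9 each). Rrm1 ran from 1124 to 1504 units, with a slope on Mki67 of 0.27 ± 0.12 (limma adjusted p = 0.319). Pcna ran from 1002 to 1380, with a slope of 0.18 ± 0.13 (limma adjusted p = 0.470). Cdt1, which loads the replicative helicase in G1, had a slope of -0.79 ± 0.29 (limma adjusted p = 0.301).

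The G1 cyclins and kinases had 1 of 6 slopes on Mki67 above 0 and a median of -0.26, with 0 called. Cdk4 averaged 1765 ± 373 units and its partner Ccnd1, cyclin D1, 1699 ± 326 (SD, n = 9 each). Inhibitors and pocket proteins had 7 of 9 slopes above 0, with a median of 0.14 and 0 called, and the transcription factors 5 of 11, with a median of -0.06. Gadd45a and Ccng1, both p53 targets in the inhibitor list, averaged 6657 ± 1908 and 3583 ± 603 units, and the transcription factor genes Myc and Tfdp1 971 ± 241 and 768 ± 100.9 (SD, n = 9 each). Cdkn1a, the p21 inhibitor of cyclin-dependent kinases, ran from 117 in replicate 3 to 846 units in replicate 5, with a slope on Mki67 of -0.17 ± 0.53 (limma adjusted p = 0.877).

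Against Cdc20, 7 of the 64 list genes were called (10.9%), beside 27.5% of all genes, as a description. With TMM scaling 5 were called. With library totals made equal 2 were, both in the replication list, and the other 4 lists had 0, so Cdk4, Lin37, Rbl1, Wee1 and Lin54 were not called there. That scaling also moved the median slope on Cdc20 of all genes to -0.11, against 0.04 with the deposited factors. Pold1, the catalytic subunit of DNA polymerase delta, Cdk4 and Lin37, a subunit of the DREAM complex, had positive slopes, of 0.92 ± 0.30, 0.68 ± 0.24 and 0.98 ± 0.27 (limma adjusted p of 0.0395, 0.0497 and 0.0191). Ccne2 (cyclin E2), the pocket protein gene Rbl1, the Cdk1-inhibiting kinase Wee1 and the DREAM subunit Lin54 had negative slopes, of -0.88, -2.12, -0.78 and -0.84 (limma adjusted p between 0.0174 and 0.0487). With either share of reads as a covariate none of them was called, as no gene was. Of the spindle, kinetochore and mitotic kinase list 0 of 17 were called against Cdc20 by limma, with 3 at an unadjusted p under 0.05.

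**Figure D3:**
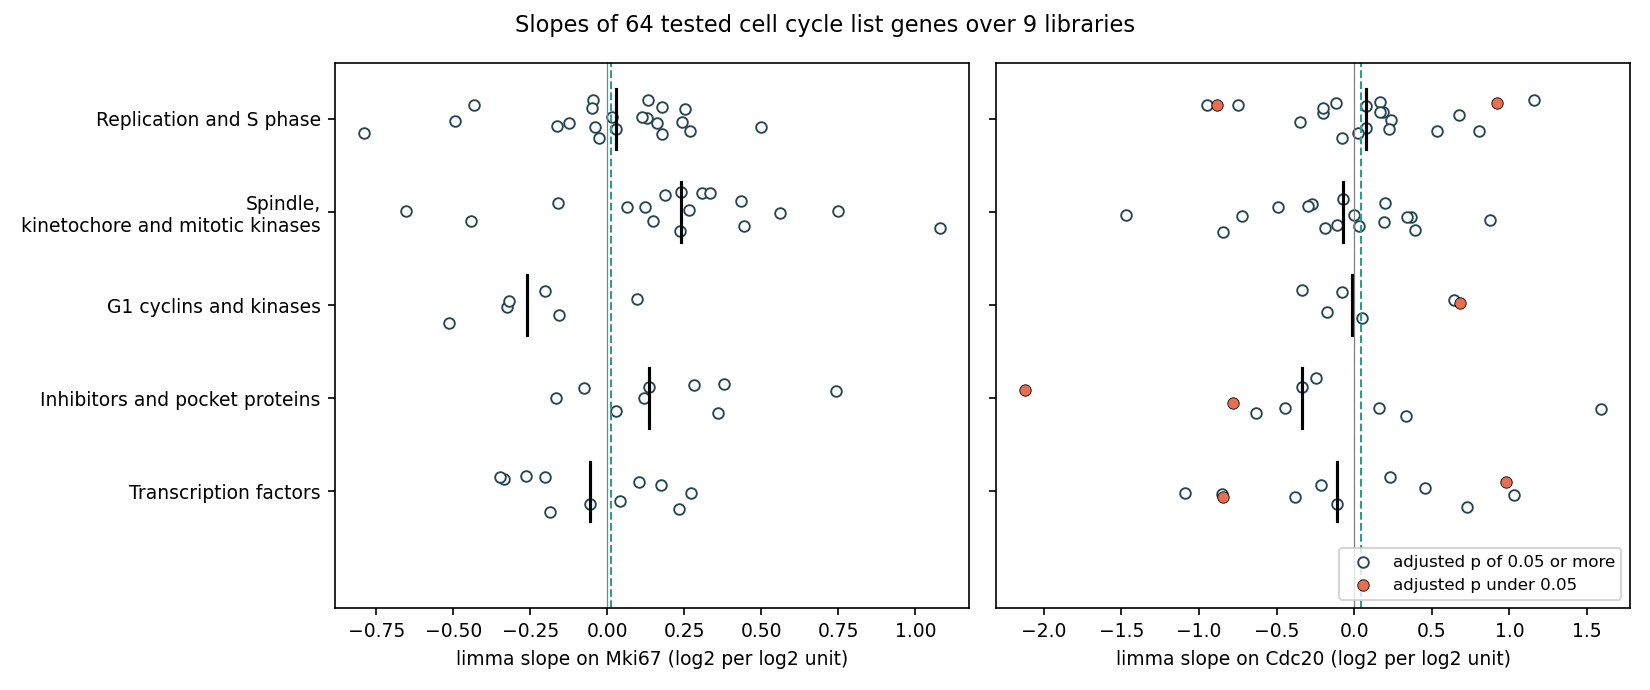
Limma slopes of the 64 tested cell cycle list genes on Mki67 (left) and on Cdc20 (right), in log2 units per log2 unit, by list, with the list median as a black bar and the median over all genes as a dashed line. Filled points passed an adjusted p under 0.05: 0 against Mki67 and 7 against Cdc20.

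Whether the mitotic genes followed Havcr1, the gene of KIM-1, which injured proximal tubule cells make, was asked with it as the anchor. The other injury markers showed no common direction on it: of 9 tested, 0 were called by limma and 4 had positive slopes. Their median slope was -0.05, so the slopes below describe Havcr1 and not tubular injury at large. Havcr1 ran from 76.9 units in replicate 7 to 475 in replicate 9. Of 13646 genes tested, 0 were called by limma (0% called), by edgeR or by DESeq2, with 498, 578 and 736 at an unadjusted p under 0.05. The slope was 0.25 ± 0.20 for Mki67, 0.20 ± 0.20 for Cdk1, -0.06 ± 0.34 for Birc5 and -0.10 ± 0.15 for Cdc20 (limma adjusted p between 0.705 and 0.954). Mki67 stood at 78.1 and 45.8 units in replicates 9 and 6, where Havcr1 was highest, and at 40.9 and 61.7 in replicates 7 and 3, where it was lowest. Across the 64 list genes 29 slopes on Havcr1 were above 0, with a median of -0.02, beside -0.01 over all genes.

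The tissue and the other cells in it were read from marker lists. The proximal tubule phosphate transporter Slc34a1 averaged 79242 ± 21463 units and uromodulin of the thick ascending limb 57070 ± 13125 (SD, n = 9 each). Immune cells can also be in cycle. The summed level of the 7 macrophage markers ran from 6099 to 9299 units, of which Lyz2 averaged 5906, so the sum largely reads this gene. Of 8 matched lymphocyte markers the sum ran from 411 to 659, of which Cd4 averaged 325 and Ptprc 194, and the other 6 of the 8 lay under the minimum mean, with the T cell gene Cd3e at 7.54 ± 3.67 and the B cell gene Ms4a1 at 1.15 ± 0.96 (SD, n = 9 each). In the Mki67 fit 0 of 7 macrophage and 0 of 2 tested lymphocyte markers were called by limma. Against Cdc20, 2 of 7 macrophage markers, C1qc and Cd68, were called with positive slopes, and Ptprc with a negative one, beside 27.5% of all genes. Also called were 2 of 5 proximal tubule and 1 of 10 injury markers (positive) and 2 of 3 endothelial and 1 of 2 thick ascending limb markers (negative). Of 4 podocyte markers 2 were called, 1 in each direction, and in the remaining marker lists none. The part of any of these cells in the mitotic levels was not tested.

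The genes most like the mean profile of the mitotic genes were found by Pearson r with the mean z-score of the 4 tested ones over the 9 replicates. Those 4 had a mean pairwise r of 0.186 over 6 pairs, so the mean joins genes whose levels differed in order. The pairs ran from -0.191 (Mki67 with Cdc20) to 0.846 (Birc5 with Cdc20), and both of these rest on the split in Cdc20. A gene close to that mean need not follow any single one of them. Eef1e1, an accessory protein of the aminoacyl-tRNA synthetase complex, and the peroxiredoxin Prdx1 led, at an r of 0.915 and 0.907. The centrosomal protein gene Cep78 stood at 0.903 and the mitochondrial peroxiredoxin Prdx3 at 0.890, and AABR07004894.1, Rtp3, Sectm1a, Trappc12, Esd and Nsmce4a at 0.887 to 0.875. Lowest were ENSRNOG00000000703 at -0.973, Mthfd1l at -0.908, Lhx1 at -0.907, S1pr1 at -0.906 and Tmem117 at -0.904. These are the extremes of all genes tested over 9 libraries, given with no test.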

How the data were processed

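Stranded mRNA libraries had been made from flash-frozen kidney cortex, per the labels' protocols. HTSeq 0.6.1p1, DESeq2, FastQC 0.11.2, MultiQC 0.9 and the build Rnor_5.0 are listed in the submitters' processing notes. The aligner is not given in the sources used here. Per the labels, the values are a size-factor normalised signal, which the authors derived from reads counted per gene. Whole reads were recovered, since 99.988% to 99.994% of values above 0 in a library lay within 0.1 read of a whole number. Of 18423 rows, 3 counted reads outside genes, in more than 1 gene or in more than 1 place. They were used only as library measures.

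Genes averaging at least 10 units (13647) were analysed on a log2 scale with a pseudocount of 1. Slopes on an anchor gene were fitted with limma 3.58.1 (robust trend, R 4.3.3) over all genes, with Benjamini-Hochberg adjustment and a threshold of 0.05. edgeR 4.0.16 and DESeq2 1.42.0 on the recovered reads, and exact permutation tests over all pairings of the 9 libraries, were alternatives. The fits were tested on simulated counts of 13647 genes with slopes on Mki67. There limma recovered 100% of 100 genes at a slope of 2 and 69% of 100 at a slope of 1, with 20 false calls. Whether these rates hold for the mitotic genes was not tested. In the data, slopes of Cdk1, Birc5 and Cdc20 on Mki67 had SEs of 0.25 to 0.57. Members, lists and rules were chosen with earlier results of these data known. Named genes were the members, the 10 genes most like and 5 least like their mean profile, and of each list up to 5 called genes and the 2 with the highest mean in units, which ignores gene length. Others are named after their values were seen. Promoter sequences are RefSeq's, GRCr8.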

Additional observations from a re-analysis of the deposited data

Results flagged for a closer look

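Aurkb in replicate 1, at 14.4 units, stood above the other 8 libraries, at 0 to 6.59 units: the gap to the next library was 0.542 of the whole range. It rests on 14 reads, with a 95% Poisson interval of 7.87 to 24.2 units. That interval overlaps the one of replicate 4, the next highest, at 3.16 to 12.1 units. Chance flags about 1 in 20 groups of normally distributed values, which low read counts are not, and both ends of 5 genes were examined. Whether the cause is technical was not tested.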

How the results depend on the processing

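No paired analysis was possible because the libraries form 1 group. Top2a as the anchor was not run. The count of genes following Mki67 was 0 in every limma setting with Mki67 as the anchor, also with each replicate left out, in edgeR and by exact permutation of Spearman rho. It was 70 in DESeq2, 1 by exact permutation of Pearson r (Mrps10, r = 0.932, permutation p = 2.76e-06, the smallest the 9 libraries can give, adjusted p = 0.0376) and 3750 with Cdc20 as the anchor, where 1 mitotic gene was called. Counts for Havcr1 were 0 in all alternatives run. For Cdc20 the count was 1029 to 5056 with a replicate left out, 624 with log2 library size, 0 with either share of reads as a covariate and 1460 by exact permutation of Pearson r. Its count of mitotic genes was 0 to 1 with a replicate left out and 0 in DESeq2 (Birc5 adjusted p = 0.0541), by exact permutation of Spearman rho (0.0681) and with each covariate. With a mean of at least 100 none was left to test. For the share of reads outside genes the count was 1961 (without replicate 5) to 5390. With each library at the same total, called genes there were 79.3% positive, against 54.0%.

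Of the slopes that turned sign in the settings below, only Birc5 with Cdc20 as the anchor passed the threshold. On Mki67, Cdk1 turned to -0.00619 with library totals made equal. Birc5 turned to 0.00495 with pseudocount 5, 0.0862 in edgeR, 0.0639 in DESeq2, 0.0943 with library size, 0.401 with the multi-aligned share and 0.234 with the outside-gene share as covariate, and stood at 0.403, 2.23 and 0.814 on Cdk1, Cdc20 and the mean of the other tested genes. Cdc20 turned to 0.0461 with the multi-aligned share and stood at 0.171 on Cdk1 and 0.244 on that mean. On Havcr1, Birc5 turned to 0.0832 and 0.0588 with those shares and to a rho of 0.0167. On Cdc20, Mki67 turned to 0.158 with the multi-aligned share, and Cdk1 to -0.18 with library size, -0.405 with the outside-gene share and a rho of -0.0167. With a replicate left out, slopes ran from -0.291 to 0.219 (Cdk1 on Mki67), -0.505 to 0.29 (Birc5 on Mki67), -0.276 to 0.476 (Birc5 on Havcr1), -0.172 to 0.00848 (Cdc20 on Havcr1), -0.0799 to 0.621 (Cdk1 on Cdc20), -0.0168 to 0.0537 (Mki67 on the outside-gene share) and -0.0893 to 0.0769 (Cdk1 on it). The cause was not tested. Low counts limit Cdk1, Birc5 and Aurkb.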
